A study of Homo sapiens with 6 samples.

Results

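The genes described here are the enzymes and regulators of cholesterol synthesis and fatty acid synthesis in HT29 cells, an established human line from a colorectal adenocarcinoma. The list names 34 genes, and 31 of them were measured among 19775 genes in all. A gene was taken as measured when at least 1 probe set of the array carried its symbol and no other, and its value was the mean of those probe sets. CYP51A1 and FADS1 were read only by probe sets that carry a second symbol, and FDFT1 was not analysed here. The 31 genes fell into 15 sterol enzymes, 9 genes of the fatty acid branch, 5 genes of the SREBP system and 2 genes of sterol handling.

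A total of 300000 cells were plated in F12 medium with 7% serum, and the next day 3 cultures received 500 µg of a polyphenolic cocoa extract. The other 3 cultures were controls, titled untreated in the sample names and given saline according to the protocol. RNA was taken after 24 h and read on 1 Affymetrix U133 Plus 2.0 array per culture. Nothing states that the cultures of a group were independent experiments, so a p-value here speaks of the spread among these 6 cultures only, which may be technical.

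Cholesterol and fatty acids are both built from acetyl-CoA. The sterol route runs through mevalonate, isoprenoid diphosphates and squalene to lanosterol, whose methyl groups are removed and whose double bonds are moved on the way to cholesterol. The fatty acid route carboxylates acetyl-CoA to malonyl-CoA, builds palmitate and then elongates and desaturates it. Transcription of both routes is driven by the membrane-bound SREBP factors, which SCAP escorts to the Golgi for cleavage when sterols are low and which INSIG proteins hold back in the endoplasmic reticulum when sterols are high.

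All values below are log2 expression from a deposited table that sets the median of the 6 arrays to 0 for every probe set. They show how arrays differ for 1 gene and give no expression level, so that no gene's level can be set against another's. For the same reason the epithelial identity of the line could not be checked by level. Of 10 colon epithelium markers 0 changed in the test below, and of 17 markers of other cell types 1 did (CD14, higher). Over all genes 13.5% changed, so counts this small say little. In bulk RNA, a change in the share of cells that express a gene and a change in RNA per cell cannot be told apart. The signal of the 18S ribosomal RNA control probe sets was between -1.12 and 0.51 in the controls and -0.51 in cocoa array 1, and stood higher in the remaining cocoa arrays, at 3.31 in array 2 and 1.40 in array 3. Cocoa array 2 also had the lowest 5′ minus 3′ signal of actin and GAPDH (-0.26, against -0.052 to 0.033 in the other 5 arrays).

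Promoter sequences are shown for 3 genes on which the sterol results turn: MSMO1, the sterol enzyme that rose, NSDHL, which acts with it in the removal of methyl groups and did not pass the test, and SREBF2, the gene of the factor that drives the sterol route. They are taken from RefSeq (GRCh38.p14, plus strand), from 250 bases before to 50 bases after the annotated start. Capitals mark CCAAT in either orientation, the box bound by NF-Y, and TCACNCCAC in either orientation, a form of the sterol regulatory element.
MSMO1 (chr4:165327419-165327718): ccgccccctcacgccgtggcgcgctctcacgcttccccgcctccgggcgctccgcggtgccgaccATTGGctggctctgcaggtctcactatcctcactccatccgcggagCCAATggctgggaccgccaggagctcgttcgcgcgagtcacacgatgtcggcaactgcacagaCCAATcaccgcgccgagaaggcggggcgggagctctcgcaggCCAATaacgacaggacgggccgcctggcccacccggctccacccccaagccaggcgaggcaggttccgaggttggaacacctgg
NSDHL (chrX:152830813-152831112): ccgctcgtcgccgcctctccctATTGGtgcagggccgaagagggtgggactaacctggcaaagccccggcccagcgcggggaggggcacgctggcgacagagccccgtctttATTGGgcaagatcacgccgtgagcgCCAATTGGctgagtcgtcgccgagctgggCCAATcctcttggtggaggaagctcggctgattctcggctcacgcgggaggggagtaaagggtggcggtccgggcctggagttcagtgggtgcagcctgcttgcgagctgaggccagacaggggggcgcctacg
SREBF2 (chr22:41832855-41833154): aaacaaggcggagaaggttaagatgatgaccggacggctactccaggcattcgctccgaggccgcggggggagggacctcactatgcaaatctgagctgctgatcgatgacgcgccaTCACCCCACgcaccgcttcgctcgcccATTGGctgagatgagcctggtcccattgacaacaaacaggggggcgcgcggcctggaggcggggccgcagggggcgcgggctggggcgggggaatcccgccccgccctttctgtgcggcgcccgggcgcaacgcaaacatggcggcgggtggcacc

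The MSMO1 window held CCAAT 4 times, with first bases 185, 139, 76 and 34 bases upstream of the start. NSDHL held it 5 times, of which 2 lie on opposite strands and overlap in the run CCAATTGG. In SREBF2 the sterol regulatory element form began 133 bases and a CCAAT 106 bases upstream. Promoters of 30 of the 34 genes were found in the table. CCAAT was present in 23 of these 30 genes (76.7%), against 39.7% of all 27305 genes with a promoter there. Among the 14 sterol enzymes with a promoter the count was 12. TCACNCCAC was present in 1 of the 30 (SREBF2), against 1.39% of all genes. Both strands were read for each motif, and the 2 motifs overlapped in none of the printed windows. CCAAT was found in 4 of the 5 genes that changed with cocoa and in 19 of the 23 with a promoter that did not pass. These matches describe the letters of the windows and say nothing of which factor was bound.

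Most genes of both routes did not pass the test with the cocoa extract. Of the 31 measured, 4 rose, 1 fell and 26 did not pass a Benjamini-Hochberg adjusted p of 0.05 over all 19775 genes in limma, where 13.5% of all genes passed (7.36% higher and 6.12% lower). That is 16.1% of the 31, close to the share among all genes. The genes that rose were ACSS2, MSMO1, ACACB and INSIG2, and the gene that fell was ACACA. The size of the differences was also that of genes in general, with a median absolute log2 difference of 0.099 in the 31 and of 0.099 in all genes. The arrays of the 2 groups did not overlap in 10 of the 31, 9 of them with cocoa higher, against 32.5% of all genes, or 15.4% with cocoa higher. Without control array 1 or without control array 2 the number of changed genes was 3, and the call of INSIG2 and that of ACACA were the ones lost in both fits. Of all 19775 genes, 1623 passed without control array 1 and 1315 without control array 2, against 2666 with all arrays.

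**Figure D1:**
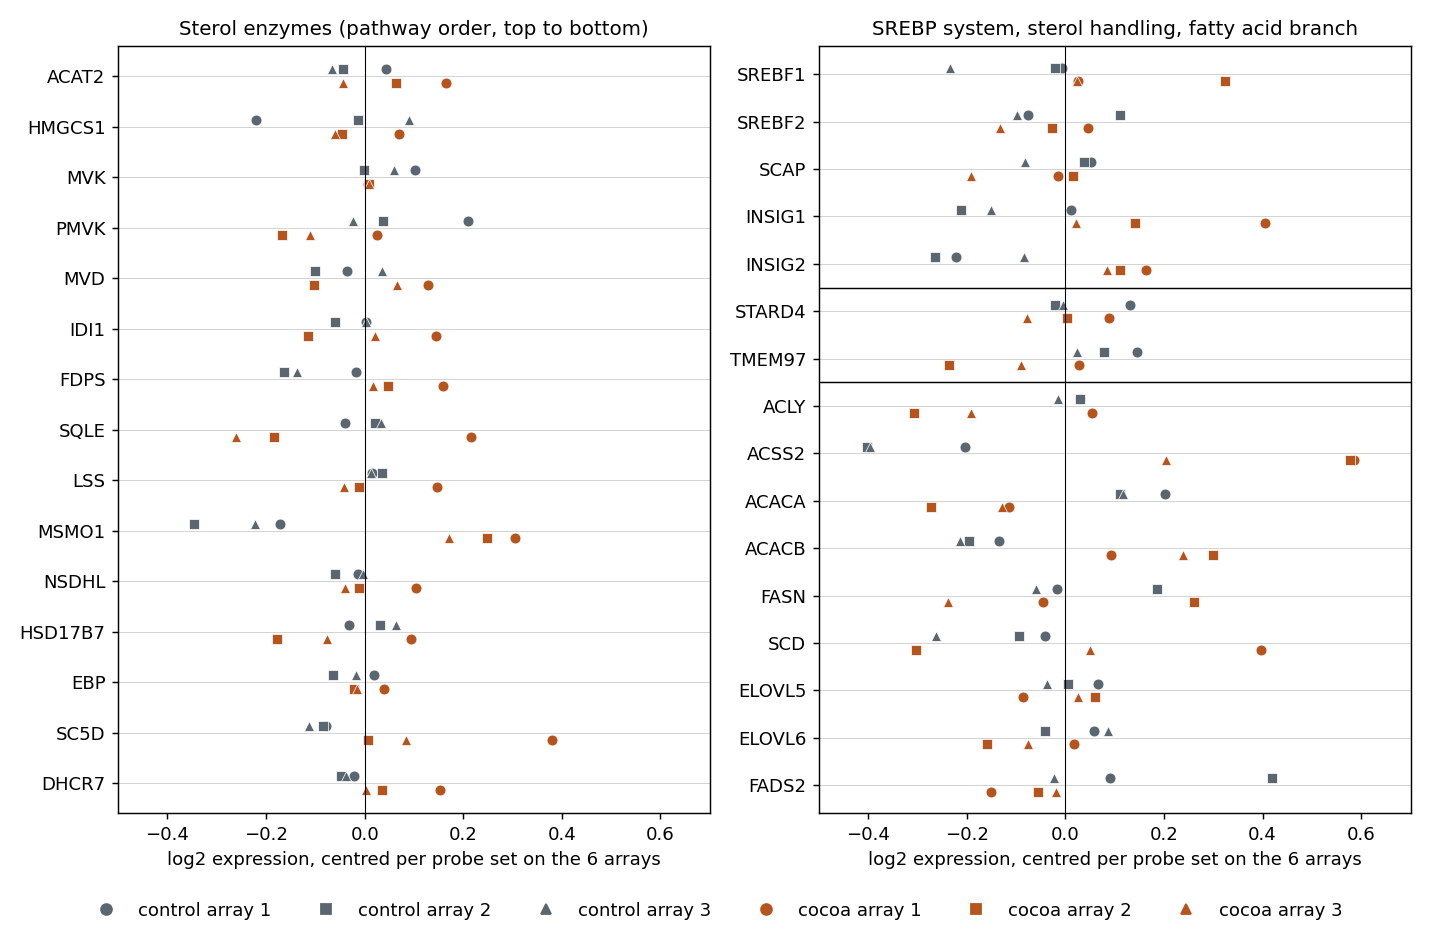
Log2 expression, centred per probe set on the 6 arrays, of the 15 sterol enzymes (left) and of the SREBP system, sterol handling and fatty acid branch genes (right). Each point is 1 array, with the marker shape giving its number. Cocoa array 1 lies at the right end for 12 of the 15 sterol enzymes, and the groups are widely separated for MSMO1 and ACSS2.

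In the sterol route 1 of 15 enzymes rose, 0 fell and 14 did not pass. The one that rose was MSMO1, the C4-methyl sterol oxidase that starts the removal of the C4 methyl groups, after the C14 methyl group of lanosterol is gone. Its value was -0.17, -0.35 and -0.22 in control arrays 1 to 3 and 0.30, 0.25 and 0.17 in cocoa arrays 1 to 3, so every cocoa array lay above every control. With cocoa, MSMO1 was 1.40-fold higher (0.49 on the log2 scale, SE 0.072, n = 3 per group, limma adjusted p = 0.00287), a difference above that of 97.2% of all genes. Leaving out any 1 of the 6 arrays kept the call (adjusted p 0.00701 to 0.0185). MSMO1 rests on a single probe set, 209146_at.

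The enzymes that act with MSMO1 or directly after it did not pass. NSDHL, the dehydrogenase of the same demethylation, had a log2 difference of 0.043 (95% interval -0.11 to 0.19), and HSD17B7, the ketoreductase that completes each round, one of -0.075 (-0.26 to 0.11). EBP, the isomerase of the sterol ring, differed by 0.022 (-0.12 to 0.16). The interval of MSMO1, 0.32 to 0.65, lies above all 3 of these. The differences between enzymes were not tested.

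Upstream, the enzymes of the mevalonate steps showed small differences in both directions. They were 0.085 for ACAT2, the cytosolic thiolase, 0.036 for HMGCS1, which makes HMG-CoA, -0.045 for mevalonate kinase (MVK), -0.16 for phosphomevalonate kinase (PMVK) and 0.063 for the decarboxylase MVD. IDI1, the isopentenyl diphosphate isomerase, differed by 0.034. None of these 6 passed, with adjusted p from 0.266 for PMVK to 0.857 for HMGCS1. FDPS, which makes farnesyl diphosphate, was at -0.018, -0.16 and -0.14 in the controls and at 0.16, 0.048 and 0.018 with cocoa. The groups of FDPS did not overlap, though control array 1 and cocoa array 3 were close, and its difference of 0.18 (SE 0.072) had a limma adjusted p of 0.135.

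SQLE, the squalene epoxidase, was even across the controls (-0.040, 0.020 and 0.033) and spread widely across the cocoa arrays (0.21, -0.18 and -0.26). Cocoa array 1 stood above all controls and the other cocoa arrays below all of them, so the mean difference of -0.081 (SE 0.11) stands for no single culture. LSS, the lanosterol synthase that closes the sterol rings, showed the same order with smaller distances: 0.016, 0.035 and 0.013 in the controls and 0.15, -0.012 and -0.042 with cocoa. Its difference was 0.0096 (SE 0.070).

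The last enzymes of the route had higher values with cocoa and did not pass. SC5D, which sets a double bond in the sterol ring, was at -0.079, -0.084 and -0.11 in the controls and at 0.38, 0.0065 and 0.084 with cocoa. The groups did not overlap, and the difference of 0.25 (SE 0.095, limma adjusted p = 0.126) has cocoa array 1 far above the other cocoa arrays. That order came from 1 of its 2 probe sets, 215064_at, at 0.51, -0.39 and 0.0056 with cocoa. The other, 211423_s_at, was at 0.25, 0.40 and 0.16 with cocoa and rose by 0.47 (limma adjusted p over probe sets 0.0143). DHCR7, the reductase of the final step, was at -0.021, -0.048 and -0.038 in the controls and at 0.15, 0.035 and 0.0029 with cocoa. The groups of DHCR7 did not overlap either, and its difference was 0.099 (limma adjusted p = 0.397). With the 18S signal as a covariate SC5D passed (difference 0.39, adjusted p = 0.0418, where 5.58% of all genes passed), as it did with the 5′ minus 3′ signal (0.38, adjusted p = 0.0409, where 7.14% passed).

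The depth of these negative results is set by 3 arrays per group. For all 14 sterol enzymes that did not pass, the 95% interval of the difference lay within 0.5 on the log2 scale in both directions, with bounds from -0.35 to 0.46. Changes of known size were simulated at the spread seen here, in 50 genes per size. Of the genes changed by 0.3, 24% were recovered, and of those changed by 0.5, 88%. A far larger share of genes passed in the data (13.5%), so the simulated cut was stricter and these recoveries may be too low. A shift of a gene mean the size of that of MSMO1 would usually have been seen, while for one of 0.3 the simulation does not settle it. The simulation changed gene means, so it does not cover a shift in a single probe set, such as 211423_s_at of SC5D (0.47).

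**Figure D2:**
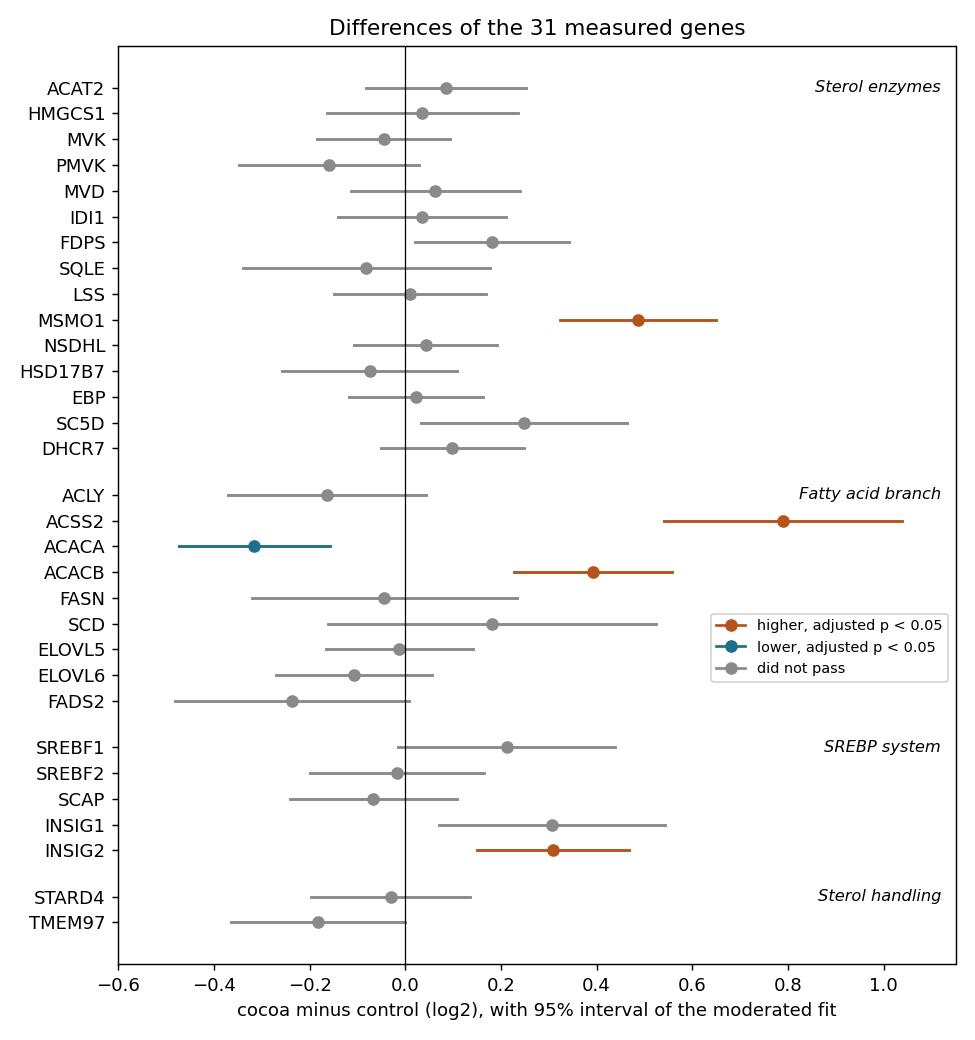
Difference cocoa minus control (log2) of each of the 31 genes with the 95% interval of the limma fit, grouped by role. MSMO1 has the largest difference of the sterol enzymes and is the one that passed, although the intervals of SC5D and FDPS also lie above 0. In the fatty acid branch ACSS2 and ACACB lie above 0 while ACACA lies below it.

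Cocoa array 1 stood apart from the other cocoa arrays across the sterol route. It held the highest of the 6 values for 12 of the 15 sterol enzymes, the exceptions being HMGCS1, MVK and PMVK, while over all genes it held the highest value for 13.1%. In the fatty acid branch it was highest for 3 of 9 genes. Over the 15 sterol enzymes the median was 0.14, -0.012 and -0.016 in cocoa arrays 1 to 3, and it ran from -0.048 to -0.0031 among the control arrays. The medians of cocoa arrays 2 and 3 thus lay inside the range of the controls. Cocoa array 1 is also the cocoa array whose 18S and 5′ minus 3′ signals were close to those of the controls. Whether these signals bear on the sterol values was not tested. With only cocoa array 1 kept, which has no replicate spread of its own, the median difference over the sterol enzymes was 0.16.

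The median log2 difference was 0.036 over the sterol enzymes and -0.044 over the fatty acid branch, beside -0.012 over all genes. The sterol median exceeded the fatty acid median by 0.079, with no test made. By array, sterol minus fatty acid was -0.048, -0.052 and 0.034 in the controls and 0.13, 0.044 and 0.0025 with cocoa. Those values overlap, since control array 3 lies above cocoa array 3. Without cocoa array 1 the sterol median was -0.00054 and sterol minus fatty acid was 0.024. With the 18S covariate the sterol median was 0.097, and with the 5′ minus 3′ covariate 0.076.

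**Figure D3:**
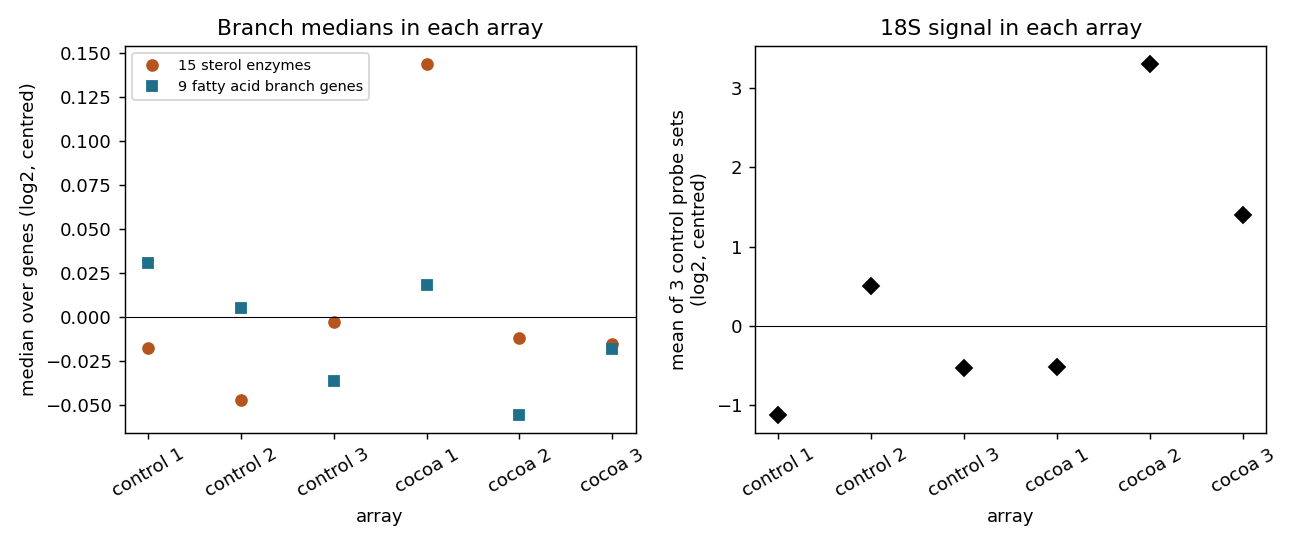
Left, the median over the 15 sterol enzymes and over the 9 fatty acid branch genes in each array (log2, centred). Right, the mean of the 3 control probe sets for 18S ribosomal RNA in the same arrays: the sterol median is high in cocoa array 1 alone (0.14), and the 18S signal is high in the other cocoa arrays (3.31 and 1.40). A link between them was not tested.

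Of the 9 genes measured in the fatty acid branch, 2 rose, 1 fell and 6 did not pass, which is 33.3% changed beside 13.5% of all genes. With the 18S covariate 1 of the 9 passed, and the branches were not tested against each other. The lists were chosen with earlier results of these data known. ACSS2, the cytosolic synthetase that makes acetyl-CoA from acetate, showed the largest difference of the 31 genes. Its value was -0.20, -0.40 and -0.40 in the controls and 0.58, 0.58 and 0.20 with cocoa. The groups of ACSS2 were far apart, with cocoa array 3 nearest to the controls. With cocoa it was 1.73-fold higher (log2 difference 0.79, SE 0.11, limma adjusted p = 0.00209), above 99.0% of all genes. The call held in each fit without 1 array (0.000823 to 0.0137), with the covariate for 18S (0.0157) and with that for the 5′ minus 3′ signal (0.019). ACSS2 rests on 1 probe set, 234312_s_at, and the suffix _s_at is given to probe sets that may read more than 1 transcript.

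ACLY makes the same acetyl-CoA from citrate exported by mitochondria. It was at 0.031, 0.029 and -0.015 in the controls and at 0.054, -0.31 and -0.19 with cocoa, so cocoa array 1 stood with the controls and the other 2 below. Its difference of -0.16 (SE 0.092) did not pass (limma adjusted p = 0.304). Without cocoa array 1 the difference was -0.26 and passed (adjusted p = 0.0421), but that fit keeps only the cocoa arrays with the higher 18S signal. With the 18S covariate the ACLY difference was -0.023 (limma adjusted p = 0.91), and with the 5′ minus 3′ covariate -0.033 (0.847). The interval of ACSS2, 0.54 to 1.04, and that of ACLY, -0.37 to 0.044, do not meet.

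As means of their probe sets, which disagreed, the paired acetyl-CoA carboxylases moved in opposite directions. ACACA, the cytosolic form that supplies malonyl-CoA for synthesis, was at 0.20, 0.11 and 0.12 in the controls and at -0.11, -0.27 and -0.13 with cocoa. ACACB, the form at the mitochondrial surface whose malonyl-CoA restrains fatty acid import, was at -0.13, -0.19 and -0.21 in the controls and at 0.093, 0.30 and 0.24 with cocoa. In neither gene did the groups overlap. ACACA was 1.24-fold lower (log2 difference -0.32, SE 0.070, limma adjusted p = 0.0179) and ACACB 1.31-fold higher (0.39, SE 0.073, adjusted p = 0.00818).

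Both carboxylase results depend on the probe set. The 2 probe sets of ACACA disagreed: 214358_at fell by 0.75 on the log2 scale (limma adjusted p over probe sets 0.0117, where 7.98% of 54613 probe sets passed), and 212186_at had a difference of 0.12 (adjusted p = 0.487). For 214358_at the values were 0.47, 0.22 and 0.23 in the controls and -0.40, -0.70 and -0.22 with cocoa. The lower mean of ACACA thus comes from that probe set alone. Of the 7 probe sets of ACACB, 3 rose, with differences of 1.08 (49452_at), 0.77 (43427_at) and 0.53 (221928_at), and the other 4 lay between -0.0045 and 0.23 without passing. The values of 49452_at were -0.48, -0.48 and -0.51 in the controls and 0.48, 0.78 and 0.51 with cocoa.

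As gene means, ACACA lost its call without control array 1 (adjusted p = 0.071), without control array 2 (0.0594) and without cocoa array 2 (0.0533), and also with the 18S covariate (difference -0.24, adjusted p = 0.121) or the 5′ minus 3′ covariate (-0.25, 0.0899). ACACB kept its call in every fit without 1 array (0.00538 to 0.0428) and lost it with the 18S covariate (difference 0.32, adjusted p = 0.0658).

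**Figure D4:**
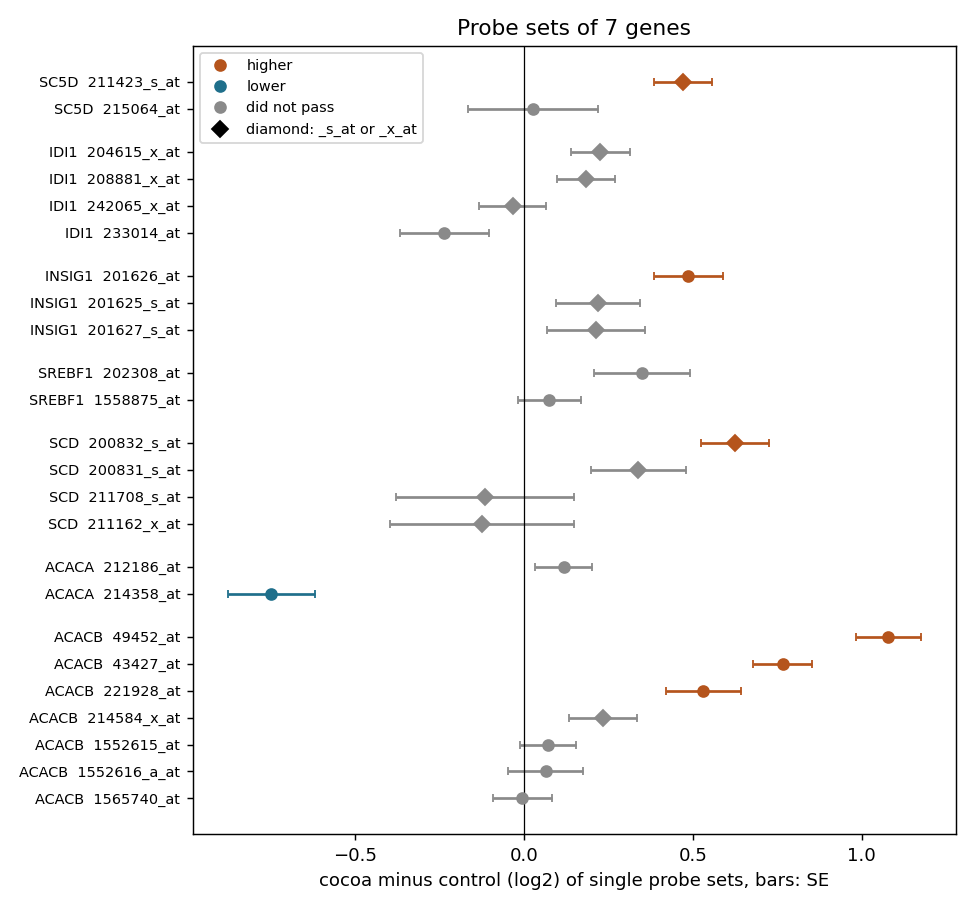
Difference cocoa minus control (log2) with its SE for each probe set of 7 genes whose probe sets differ, with colour for the call over all probe sets and diamonds for the suffixes _s_at and _x_at. ACACA has 1 probe set far below 0 and 1 slightly above it, and the ACACB probe sets run from about 0 to 1.08.

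The synthase and the enzymes that modify its product did not pass. FASN, which builds palmitate, was at -0.018, 0.18 and -0.059 in the controls and at -0.046, 0.26 and -0.24 with cocoa, so that both groups spread around 0 (difference -0.044, 95% interval -0.32 to 0.23). ELOVL6, the elongase of palmitate, differed by -0.11 (adjusted p = 0.404) and ELOVL5, an elongase of polyunsaturated chains, by -0.012 (0.941). FADS2, the first desaturase of polyunsaturated synthesis, was between -0.024 and 0.42 in the controls, where array 2 stood highest, and between -0.15 and -0.018 with cocoa (difference -0.24, adjusted p = 0.198).

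SCD, the desaturase that makes oleate, was the gene with the widest spread among the cocoa arrays: 0.40, -0.30 and 0.051, against -0.041, -0.095 and -0.26 in the controls. Its 4 probe sets split into 2 pairs. Probe set 200832_s_at rose by 0.63 (limma adjusted p over probe sets 0.0091), with -0.18, -0.29 and -0.32 in the controls and 0.39, 0.52 and 0.18 with cocoa, and 200831_s_at had a difference of 0.34 (adjusted p = 0.197). The others, 211708_s_at and 211162_x_at, were at 0.35 and 0.43 in cocoa array 1 and at -0.88 and -0.87 in cocoa array 2, and differed by -0.12 each. As a mean of all 4, SCD differed by 0.18 (SE 0.15, adjusted p = 0.514), and with the 5′ minus 3′ signal as a covariate by 0.45 (adjusted p = 0.0267).

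A low value in cocoa array 2 alone was also seen in single probe sets of the sterol route. The SC5D probe set 215064_at read 0.51 in cocoa array 1 and -0.39 in cocoa array 2, while 211423_s_at of the same gene was at 0.25 and 0.40 in these arrays and rose by 0.47 overall (limma adjusted p over probe sets 0.0143). The IDI1 probe set 233014_at read -0.49 in cocoa array 2, against 0.13 for 204615_x_at in the same array. The part that the RNA signals of cocoa array 2 have in these splits was not tested. More than 1 probe set was present for 21 genes, and in 9 of these every probe set shared one sign. Of the 76 probe sets in all, 8 rose and 1 fell, where 4.68% and 3.3% of all probe sets did.

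The SREBP system had 1 of 5 genes higher and 0 lower. INSIG2, an endoplasmic reticulum anchor of the SCAP and SREBP complex, was at -0.22, -0.26 and -0.085 in the controls and at 0.16, 0.11 and 0.085 with cocoa. Every cocoa array lay above every control for INSIG2. It was 1.24-fold higher (log2 difference 0.31, SE 0.070, limma adjusted p = 0.0195). The call was lost without control array 1 (0.0717) or control array 2 (0.0962), and with the 18S (0.062) or the 5′ minus 3′ covariate (0.0663), where the difference was no smaller (0.34 and 0.32).

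INSIG1, the partner of INSIG2 whose gene is itself a target of SREBP, had a difference of the same size and a wider spread. Its value was 0.011, -0.21 and -0.15 in the controls and 0.41, 0.14 and 0.021 with cocoa. The groups did not overlap, though control array 1 and cocoa array 3 were close, and the difference of 0.31 (SE 0.10) had a limma adjusted p of 0.0892. Of its 3 probe sets, 201626_at rose by 0.49 (limma adjusted p over probe sets 0.0247), with -0.14, -0.32 and -0.11 in the controls and 0.39, 0.37 and 0.11 with cocoa. The other 2 probe sets, both with the suffix _s_at, differed by 0.22 and 0.21 and did not pass.

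The genes of the factors themselves did not pass. SREBF1, which encodes the SREBP form that favours fatty acid genes, was at -0.0074, -0.021 and -0.23 in the controls and at 0.026, 0.32 and 0.024 with cocoa (difference 0.21, SE 0.10, adjusted p = 0.215). The groups of SREBF1 did not overlap, but cocoa arrays 1 and 3 were close to the upper controls. SREBF2, which encodes the form that favours sterol genes, differed by -0.016 (95% interval -0.20 to 0.17), and SCAP, the escort, by -0.066 (-0.24 to 0.11). In sterol handling, STARD4, a carrier of cholesterol between membranes, differed by -0.031 (adjusted p = 0.852). TMEM97, the sigma-2 receptor, was at 0.15, 0.079 and 0.024 in the controls and at 0.028, -0.24 and -0.091 with cocoa. The groups of TMEM97 overlapped slightly, and its difference of -0.18 (SE 0.081) did not pass (adjusted p = 0.183).

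Of 38 other genes of the same pathways, 31 were measured, and 10 rose, 2 fell and 19 did not pass. That is 38.7%, beside the 13.5% of all genes that passed, but the list was chosen with earlier results of these data known. The share was not tested. With the 18S covariate 7 of the 31 passed and with the 5′ minus 3′ covariate 8, where 5.58% and 7.14% of all genes did. The calls lost with both were those of LBR, MBTPS2, RNF139 and MID1IP1, with differences of -0.23 to -0.27 in the genes that fell and 0.28 to 0.31 in those that rose. In 6 other enzymes of sterol and isoprenoid synthesis 2 rose and 1 fell. TM7SF2 and LBR both reduce the sterol C14 double bond just before the step of MSMO1, and they moved in opposite directions. TM7SF2, a reductase of the endoplasmic reticulum, was at -0.24, -0.41 and -0.24 in the controls and at 0.53, 0.36 and 0.24 with cocoa. LBR, the lamin B receptor of the nuclear envelope, was at 0.10, 0.17 and 0.11 in the controls and at -0.12, -0.10 and -0.14 with cocoa. Neither gene's groups overlapped: TM7SF2 was 1.59-fold higher (log2 difference 0.67, SE 0.090, limma adjusted p = 0.00175) and LBR 1.19-fold lower (-0.25, SE 0.061, adjusted p = 0.0271). LBR lost its call in 5 of the 6 fits without 1 array (up to 0.126), all but the fit without cocoa array 1. GGPS1, which makes geranylgeranyl diphosphate, rose by 0.42 on the log2 scale (SE 0.075). Its probe set 202321_at rose by 0.69, and 202322_s_at differed by 0.14 without passing.

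In 5 genes of SREBP cleavage and sterol-regulated degradation 2 rose and 1 fell, and with either covariate 1 of them (ERLIN2) passed. ERLIN2, a prohibitin-family protein of the endoplasmic reticulum, rose by 0.42 (SE 0.079), and MBTPS2, the site-2 protease that releases SREBP, rose by 0.30 (SE 0.069). Of the MBTPS2 probe sets only 226760_at passed (0.52), beside differences of 0.27 (206473_at) and 0.11 (1554604_at). RNF139, a sterol-sensing ubiquitin ligase, fell by 0.27 (SE 0.063). Of these 3, ERLIN2 kept its call in every fit without 1 array, and the adjusted p reached 0.0996 for MBTPS2 (lost without control array 2 or 3 or cocoa array 2 or 3) and 0.0886 for RNF139 (lost without any 1 control array or cocoa array 2).

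Genes of sterol export and esterification included ABCG1, whose difference was larger than that of any of the 31 genes above. Of 6 measured, 3 rose and 3 did not pass. ABCG1, a lipid exporter induced by the sterol-sensing LXR receptors, was at -0.55, -0.55 and -0.69 in the controls and at 0.39, 0.87 and 0.52 with cocoa. It was 2.28-fold higher (log2 difference 1.19, SE 0.12, limma adjusted p = 0.000352), and all 4 of its probe sets rose, by 0.65 to 2.09. SOAT1, which esterifies cholesterol for storage, rose by 0.50 (SE 0.065), with all 3 probe sets higher, and ABCA1, the exporter to apolipoprotein A-I, rose by 0.38 (SE 0.066) through 2 of its 4 probe sets. With the 18S covariate the adjusted p of ABCA1 was 0.0502 (difference 0.31). NR1H3, the gene of LXR-alpha, and MYLIP, an LXR-induced ubiquitin ligase, had differences of 0.25 and 0.20 without passing (adjusted p 0.0936 and 0.0909). The probe sets of MYLIP disagreed, with 3 of 6 higher (0.40 to 0.58) and 228097_at at -0.50, and without _s_at and _x_at probe sets its difference was -0.25 (adjusted p = 0.0929).

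Among 14 other fatty acid genes 3 rose and 11 did not pass. ACSL1 and ACSL5, which activate long-chain fatty acids to their CoA esters, rose by 0.60 (SE 0.073) and 0.33 (SE 0.061). ACSL1 was between -0.27 and -0.19 in the controls and between 0.28 and 0.49 with cocoa. MID1IP1, an activator of the acetyl-CoA carboxylases, rose by 0.38 (SE 0.084). Its adjusted p reached 0.0793 in the fits without 1 array (call lost without control array 2, cocoa array 2 or cocoa array 3). The elongases ELOVL2, ELOVL3, ELOVL4 and ELOVL7 did not pass, nor did MLXIPL, the carbohydrate-responsive factor of lipogenesis (0.026, adjusted p = 0.889).

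**Figure D5:**
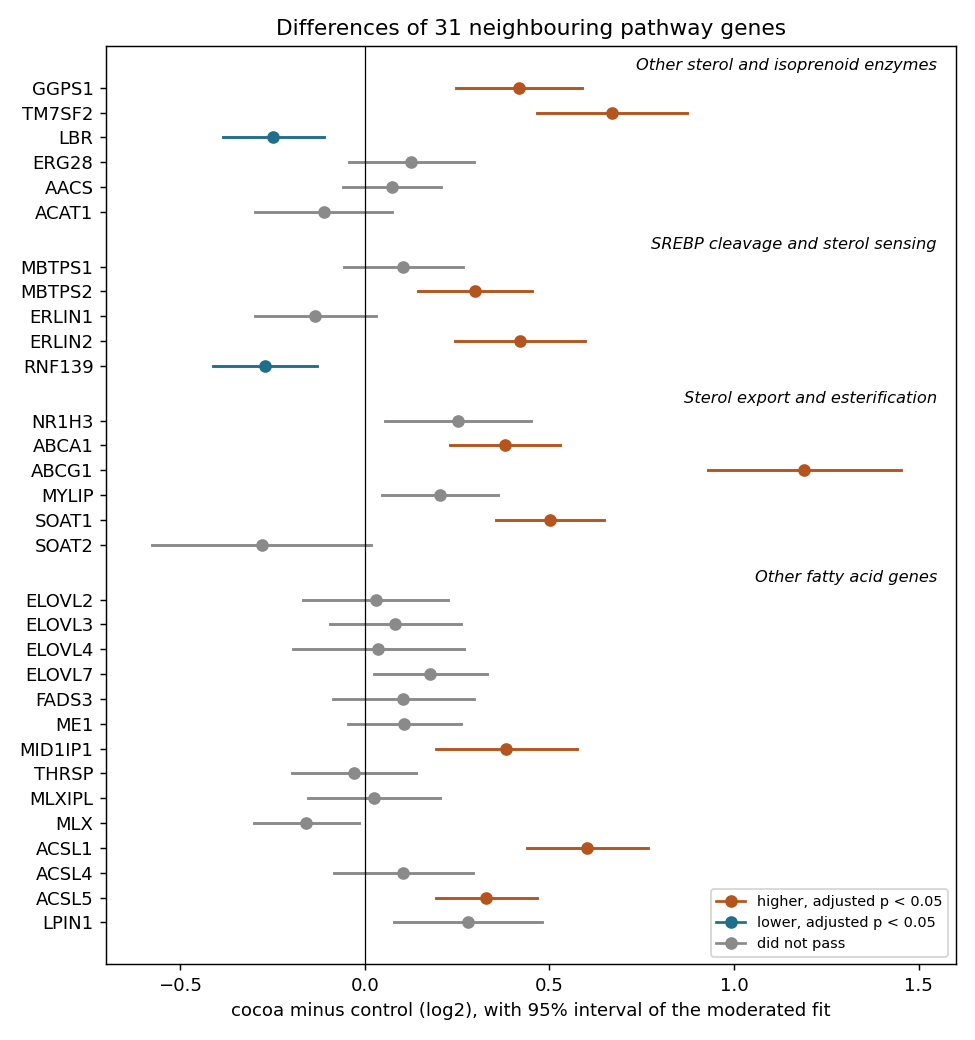
Difference cocoa minus control (log2), with the 95% interval of the limma fit, of 31 other genes of the pathways in 4 groups. ABCG1 (1.19) lies farthest to the right, and TM7SF2 and LBR, which catalyse the same reduction, lie on opposite sides of 0.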

How the data were processed

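Expression was measured in 6 HT29 cultures, 3 with cocoa extract and 3 controls. The deposited values are log2 expression made by the authors with RMA, per the submitters' processing notes, and the table had been centred per probe set (largest absolute median over the arrays 5.0e-07). The log base follows from RMA. GeneSpring GX was used for analysis, per the series' design text, and versions and filters are not stated in the sources used. Of 54613 probe sets without the 62 control probe sets, 41091 carried 1 gene symbol in the platform annotation, 1801 several and 11721 none. All 34 symbols matched RefSeq.

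Gene means were compared as cocoa minus control with limma 3.58.1 (lmFit and eBayes) in R 4.3.3, adjusted by Benjamini-Hochberg over 19775 genes, threshold 0.05. Folds are powers of 2 of that difference, and SEs and 95% intervals are those of the moderated fit. Members and lists were chosen with earlier results of these data known. Every member is reported. Those that changed, did not overlap or led their list are given by array. Of the other genes, changed ones are named, up to 4 per list. Additional array values, SCD, the elongases, MLXIPL, NR1H3, MYLIP, CD14 and genes set beside these were chosen after their values were seen. The steps were tested on simulated data. The number of arrays limits the precision. Figures were made with Python 3.11.15 and matplotlib 3.10.9.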

Additional observations from a re-analysis of the deposited data

How the results depend on the processing

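The number of changed genes among the 31 was 5 (4 higher, 1 lower) when arrays were weighted, quantile-normalised or centred, in the robust fit and with the median of probe sets. With the 5′ minus 3′ covariate it was 5 (all higher), but a different 5, with SC5D and SCD called and INSIG2 and ACACA not. Without _s_at and _x_at probe sets the number was 5 of 22 measured, with INSIG1 (adjusted p = 0.0124) called and ACSS2 not measured. It was 3 with the 18S covariate and 3 at an adjusted p below 0.01, and 3 to 6 over the fits without 1 array. Sterol enzymes changed numbered 2 with the 18S covariate, 2 with the 5′ minus 3′ covariate and 2 without cocoa arrays 2 and 3, a setting added after the data were seen. In the fatty acid branch 1 gene changed with the 18S covariate, and 2 to 4 in the fits without 1 array. The fatty acid median was -0.090 with array weights and -0.081 to -0.015 without 1 array. The sterol median was -0.00054 to 0.058 without 1 array and 0.16 without cocoa arrays 2 and 3, where sterol minus fatty acid was 0.18 (0.024 to 0.13 without 1 array). The setting without cocoa arrays 2 and 3 was added after the data were seen. Among genes that changed, the direction was opposite to the gene mean in ACACA probe set 212186_at (0.12) and ACACB probe set 1565740_at (-0.0045). The cause of these shifts was not tested.

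Same-numbered arrays did not deviate together (correlations over genes -0.12, -0.0089 and -0.0031). With 3 arrays per group, these values do not settle whether same-numbered cultures were handled together. With the replicate block 4 of the 31 changed, INSIG2 not among them (adjusted p = 0.0515), and 1947 genes in all, against 2666. Signal over background is unknown, because the table holds no levels.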
